A study of Macaca fascicularis with 80 samples.

Results

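The comparison of day 3 with day 1 follows whole-blood gene expression from 24 h to 72 h after a first dose of IL-15/IL-15Ra, the cytokine interleukin 15 complexed with its receptor alpha chain. It takes the libraries of day 1 and day 3, as named in the count table, which gives 16 of the 80 libraries of the series, paired by animal. The 8 cynomolgus macaques (Macaca fascicularis), 4 female and 4 male, were given rising doses, 5 µg/kg first (day 0), then 10 µg/kg (day 3) and last 15 µg/kg (day 7), and blood was taken into PAXgene tubes at 10 time points. Day 0 libraries carry a dose of 0 and are labelled Control, and day 1 and day 3 libraries both carry 5 µg/kg and are labelled IL15. Because day 3 is labelled with the first dose and day 7 with the second, each was read as drawn before the dose of that day, although the labels do not say so. Days 8 and 10, at 15 µg/kg, bound the same interval after the third dose, and days 4 and 7, at 10 µg/kg, bound a longer one after the second. All animals were dosed, so time after dosing and time in the study cannot be told apart.

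Interleukin 15 is presented to neighbouring cells on its alpha chain and signals through the beta and common gamma receptor chains that it shares with interleukin 2. Through JAK kinases and STAT5 it drives survival, division and cytotoxic function of natural killer cells and memory CD8 T cells. Cytokines of this family are also known to move lymphocytes out of blood and back within days of a dose. Whole blood pools all of these cells with granulocytes, monocytes, platelets and red cells. A change in a transcript may therefore reflect fewer cells of a type or less RNA per cell, which cannot be told apart here.

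Genes are known in these data only by Ensembl identifiers of the macaque. None of them matched a gene name in the table used here, so cell type markers could not be read, the labelled tissue was not checked against them, and genes are described by set and by time course. The 16 libraries held 20.5 to 36.2 M counts (median 25.2 M) and all 16 carry the same sequencing run and library tag. Total counts, the number of genes at 1 CPM or more (CPM, counts scaled to a common library size), the share of counts in the 10 and in the 100 most abundant genes, and the scaling factor were compared between the days. No difference passed the threshold when signs were flipped over the 8 animals (two-sided exact permutation test, adjusted p from 0.609 to 0.961 over 6 measures). The number of genes at 1 CPM or more was 12427 ± 281 (SD, n = 8) on day 1 and 12540 ± 158 on day 3.

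Between 24 h and 72 h, 533 genes rose and 434 fell, together 967 of the 16054 genes tested or 6.02% (3.32% up and 2.7% down). At an unadjusted p under 0.05 the share was 23%. The changes were uneven in size. Of the genes that rose, 168 did so by more than 2-fold and 34 by more than 4-fold, whereas 14 of those that fell passed 2-fold and none passed 4-fold. The imbalance was smaller over all genes tested, called or not. There, 496 were up and 240 down by more than 2-fold, and 73 and 16 by more than 4-fold. The median log2 change was 0.64 among genes called higher and -0.42 among genes called lower, beside 0.00 over all genes tested. A gene was called when the Benjamini-Hochberg adjusted p of edgeR's quasi-likelihood test, fitted on the 16 libraries with animal as a block, was under 0.05.

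Genes called higher numbered 37, 158, 190 and 148 in 4 bins of equal size, ordered from low to high mean level. Genes called lower lay mostly among the abundant ones, with 7, 62, 144 and 221 in the same bins. All 8 animals moved the same way in 308 of the 533 genes called higher and in 246 of the 434 called lower. Over all genes tested, 3.16% were higher in 8 of 8 animals and 2.7% lower. Since calls rest on the spread between animals, such agreement is partly built into them.

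**Figure D1:**
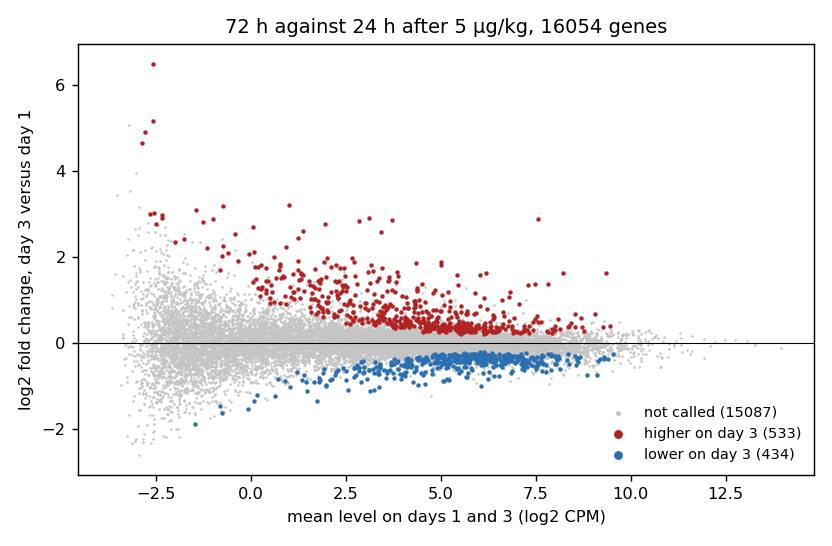
Log2 fold change of day 3 versus day 1 (vertical axis) against the mean level on both days in log2 CPM (horizontal axis) for the 16054 genes tested, with 533 genes called higher in red, 434 called lower in blue and the others in grey. Among the called genes large increases reach further from 0 than large decreases, with 168 genes up and 14 down by more than 2-fold. Over all genes tested these counts are 496 and 240.

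The count depended on the pairing and on single animals. Without the animal block 25 genes were called, all higher on day 3. Leaving out animal 39090 raised the count to 1805. It was 598 when 39102 was left out, 474 for 39104, 354 for 39095, 338 for 39098, 272 for 39100 and 241 for 39103. The 4 males alone gave 1334 calls and the 4 females alone 0, with 1583 genes at an unadjusted p under 0.05 in the females. DESeq2 called 1876 genes, with more lower than higher (994 and 882).

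The 2 genes with the largest rise among those that moved the same way in all 8 animals are given first, by identifier. ENSMFAG00000040797 ranged from -0.73 to 4.15 log2 CPM on day 1 (median 1.20) and from 3.09 to 5.36 on day 3 (median 4.78). Its raw counts in the 8 animals went from 14 to 464 on day 1 to between 183 and 962 on day 3. The lowest library of day 3, from animal 39090, lay below the day 1 level of animals 39097 and 39098, so the groups overlapped, although every animal rose. The log2 fold change was 2.90 (SE 0.59, adjusted p = 0.0176 by edgeR), or 7.45-fold, and missed the threshold without animal 39103 (adjusted p = 0.0557). Day 3 stood near the level before dosing, at 4.63 ± 0.76 (SD, n = 8) beside 4.60 ± 0.49 on day 0.

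ENSMFAG00000004079, a gene of much higher level, ranged from 3.48 to 8.80 log2 CPM on day 1 (median 6.08) and from 7.21 to 10.11 on day 3 (median 9.06). Again the ranges overlapped through the low day 3 library of animal 39090 and the high day 1 libraries of animals 39097 and 39098. Its log2 fold change was 2.89 (SE 0.56, edgeR adjusted p = 0.0146). Day 0 stood at 8.67 ± 0.29 (SD, n = 8), which placed day 1 below both neighbours. The SD between animals was 1.83 on day 1 and 0.88 on day 3.

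Among the genes that fell, ENSMFAG00000031349 ranged from 2.95 to 5.04 log2 CPM on day 1 (median 3.73) and from 1.68 to 3.95 on day 3 (median 2.47). Animal 39090 was the highest of the 8 on both days, and its day 3 value exceeded the day 1 value of the other 7, so the groups overlapped. The log2 fold change was -1.11 (SE 0.12, adjusted p = 0.00132 by edgeR), and single animals ran from -1.49 to -0.71. Day 3, at 2.58 ± 0.73 (SD, n = 8), was again close to day 0, at 2.49 ± 0.59.

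ENSMFAG00000020302 followed another course. It ranged from 1.18 to 6.0 log2 CPM on day 1 (median 3.92) and from 0.38 to 5.18 on day 3 (median 2.38), with wide overlap, since animals differed from each other by more than either day from the other. Within animals it fell, with a log2 fold change of -1.09 (SE 0.17, adjusted p = 0.0049 by edgeR) and single values between -0.16 in animal 39090 and -1.76 in animal 39103. Day 0 had been higher still, at 4.78 ± 1.54 (SD, n = 8), so that the decline from day 1 to day 3 led away from the level before dosing. Without the animal block none of these 4 genes passed the threshold (adjusted p from 0.11 to 0.786), and in 1 fit over all 80 libraries ENSMFAG00000020302 did not (adjusted p = 0.0601).

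**Figure D2:**
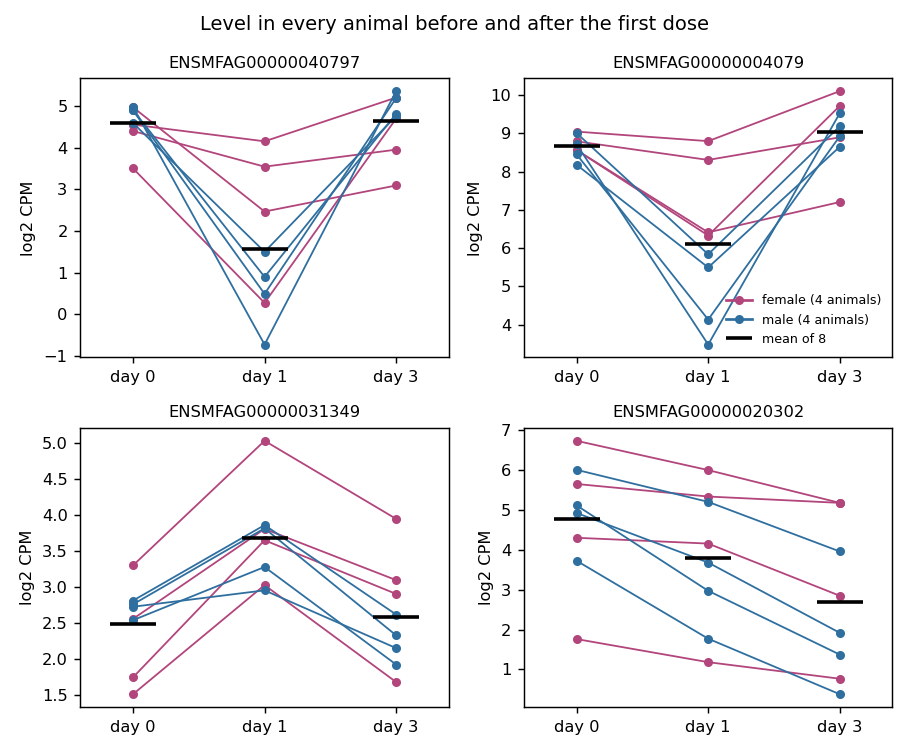
Level of 4 genes in log2 CPM (vertical axes, scales differ) on days 0, 1 and 3 in each of 4 females and 4 males, with a line per animal and a black bar at the mean of 8. In 3 of the genes day 3 lies near day 0 with day 1 apart, while ENSMFAG00000020302 declines through all 3 days.

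Likeness in time course was measured as Pearson's r over the 10 day means, a description over means that share animals. Those means include days 1 and 3, so neighbours of a called gene are partly bound to be called, and 6.02% of all genes tested were. ENSMFAG00000040797 had 54 genes at r over 0.95, of which 37 were called between days 1 and 3, and its nearest neighbour reached r = 0.99. ENSMFAG00000004079 had 59 such genes, 44 of them called. ENSMFAG00000020302 had 14, with 6 called, and ENSMFAG00000031349 had 3, with 1 called.

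Whether day 3 was a return to the state before dosing was then examined over all called genes. Day 0 libraries took no part in the calls, and each gene's day 0 level was set against the midpoint of its levels on days 1 and 3, a contrast whose weights do not follow the difference between those days, although it shares their libraries. Day 0 lay nearer day 1 than day 3 in 723 of the 967 called genes (74.8%), and nearer day 3 in 244. The share was 68.7% among genes called higher and 82.3% among genes called lower, beside 59.5% of all genes tested. Leaving out any 1 animal, in both the calls and the levels, gave 70.4% to 79.7%. The comparison is listed under the name recovery. By this measure, which takes the side of the estimate alone, most called genes were further from day 0 at 72 h than at 24 h. So were most of all genes tested, by a smaller share. The comparison is therefore called here the change from 24 h to 72 h.

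The contrast of day 0 with the midpoint called 10.8% of all genes tested, 4.63% with day 0 above and 6.18% with day 0 below. Its total of 1735 was 1022 without 39100, 1096 without 39103 and 1100 without 39098. Among the 967 genes it called 339, which fall into 4 groups, and did not call 628. A "late rise" group of 143 genes rose from day 1 to day 3 with day 0 nearer day 1, and a "late fall" group of 150 genes fell with day 0 nearer day 1. A "returning rise" group of 25 genes rose with day 0 nearer day 3, and a "returning fall" group of 21 genes fell with day 0 nearer day 3. ENSMFAG00000040797 belongs to the returning rise, ENSMFAG00000031349 to the returning fall and ENSMFAG00000020302 to the late fall, whereas ENSMFAG00000004079 was not called against the midpoint (adjusted p = 0.118 by edgeR). The group sizes moved with single animals. The late rise held 56 genes without 39100 or 39103, 76 without 39098, 83 without 39104, 85 without 39102 and 93 without 39095. The returning rise held 1 gene without 39103, 6 without 39104, 7 without 39100, 9 without 39102 and 11 without 39095. The late fall held 363 genes without 39090, 57 without 39102, 51 without 39104, 48 without 39095, 29 without 39098 or 39100 and 14 without 39103. The returning fall held 47 genes without 39097 and 5 to 7 without any 1 of 39095, 39098, 39100, 39102, 39103 and 39104.

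The returning rise was the group of large changes, with 21 of 25 genes above 2-fold. Its mean level was -1.78 ± 0.67 (SD, n = 8) relative to each animal's own day 0 on day 1, with all 8 animals below, and -0.13 ± 0.60 on day 3, with 4 animals above and 4 below. Animals 39090 and 39097 were furthest from day 0 on day 3, at -1.38 and -0.62, and the other 6 lay between -0.14 and 0.41. These values describe genes chosen on the same days. The returning fall was milder. It stood at 0.81 ± 0.17 on day 1 and, still above day 0 in all 8 animals, at 0.30 ± 0.16 on day 3.

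In the late rise, the mean stood at 0.20 ± 0.09 (SD, n = 8) above day 0 on day 1 and at 1.06 ± 0.31 on day 3, where the 8 animals ran from 0.56 to 1.55. Of its 143 genes, 50 passed 2-fold. The late fall stood at -0.20 ± 0.21 on day 1 and -0.70 ± 0.28 on day 3, with all 8 animals below day 0 and a range of -1.04 to -0.21. The smallest departure on day 3 belonged to animal 39090 in both late groups and the largest to animal 39100.

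Libraries of later days took no part in choosing the groups, but day 0 did, and levels relative to day 0 are therefore partly fixed by the choice. Late fall and returning rise genes were chosen with day 0 above the midpoint, late rise and returning fall genes with day 0 below it. Differences between 2 later days do not use day 0. The returning rise group was low again 24 h after each later dose, at -1.27 ± 0.59 (SD, n = 8) on day 4 and -1.31 ± 0.78 on day 8, below day 0 in 8 of 8 animals both times. In between, on day 7, it was 0.87 ± 0.43 above day 0 in 8 of 8 animals. From day 7 to day 8 its mean difference was -2.18 ± 0.97, lower in 8 of 8 animals, beside -0.03 ± 0.03 over all genes tested. By day 21 it stood 0.60 ± 0.24 above day 0 in 8 of 8 animals. The late rise group differed by 0.00 ± 0.22 from day 7 to day 8, with 4 animals in each direction, a value that scaling by library totals moved to -0.36, beside -0.37 over all genes tested. It was 0.96 ± 0.25 above day 0 on day 10. Day 14 was lower than day 10 in 8 of 8 animals, with a mean difference of -0.73 ± 0.40, and day 21 stood 0.03 ± 0.31 from day 0. In every animal the day 10 and day 14 libraries are on different sequencing runs. The change of run in animals 39102, 39103 and 39104 is the reverse of that in the other animals, and the step was downward in both sets. The part of the run in its size was not tested.

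The late fall group, chosen in part for a high day 0, is described by the same measure. Its mean was -0.77 ± 0.24 (SD, n = 8) on day 7 and -0.82 ± 0.27 on day 10, and had the value -0.77 ± 0.24 again on day 21, with 8 of 8 animals below day 0 each time. Day 8 was nearer day 0, at -0.21 ± 0.42 with 3 animals above and 5 below, although library totals placed it at -0.53 with all 8 below. The step from day 7 to day 8 was 0.55 ± 0.38, or 0.19 with library totals, upward in 8 of 8 animals by either scaling. The returning fall group was again above day 0 on days 4 and 8, at 0.64 ± 0.17 and 0.57 ± 0.22 in 8 of 8 animals, and stood at 0.01 ± 0.27 on day 7. With library totals it was above day 0 in 7 of 8 animals on day 4, at 0.50, and in 5 of 8 on day 8, at 0.26.

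**Figure D3:**
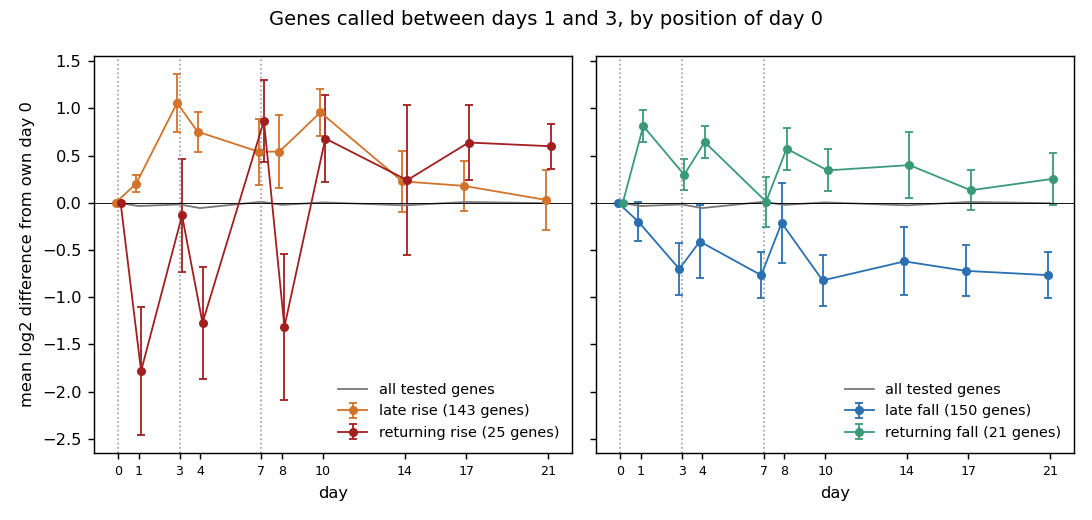
Mean log2 difference from each animal's own day 0 (vertical axis) by day (horizontal axis) for the 4 groups, with points at the mean and bars of 1 SD over 8 animals; dotted lines mark the doses on days 0, 3 and 7, and the grey line is the mean over all genes tested. The returning rise group lies low on days 1, 4 and 8 (-1.78, -1.27 and -1.31), while the late fall group lies near -0.8 on days 7 and 10 and at -0.77 on day 21.

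The third dose allowed the same 48 h interval to be measured in libraries that the first comparison did not use. From day 8 to day 10, 905 genes rose (5.64% of those tested) and 884 fell (5.51%), together 11.1%. Of the 533 genes called higher on day 3, 206 were called higher on day 10 (38.6%) and 0 lower. Of the 434 called lower, 145 were called lower (33.4%) and 0 higher. These shared genes make up 22.8% of the genes higher on day 10 and 16.4% of those lower. The fitted change was positive in 492 of the 533 genes, beside 53.4% of all genes tested, and negative in 392 of the 434, beside 46.6%. Across the 16054 genes, which are not independent replicates, the changes of the 2 intervals correlated at r = 0.45 in libraries of the same 8 animals.

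Genes called higher on day 3 had a mean log2 change of 0.67 ± 0.32 (SD, n = 8) from day 8 to day 10, upward in 8 of 8 animals and between 0.14 and 1.20. Genes called lower had a mean change of -0.45 ± 0.19, downward in 8 of 8 animals. Over all genes tested the mean was 0.03 ± 0.04. The returning rise group had the largest mean of the 4 groups in this interval, 1.99 ± 0.98 and upward in 8 of 8 animals, with animal 39103 lowest at 0.20. Of its 25 genes, 24 were called higher. The late fall group had 77 of 150 genes called lower and a mean of -0.61 ± 0.31 in 8 of 8 animals. In the late rise group 27 of 143 genes were called higher, with a mean of 0.42 ± 0.24 and 7 of 8 animals up. With library totals the late fall mean was -0.33 with 7 of 8 animals down, and the late rise mean 0.69 with 7 of 8 up. In the returning fall group 2 of 21 genes were called lower, and its mean was -0.23 ± 0.28 with 7 of 8 animals down, or 0.04 with 5 of 8 up under library totals.

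Days 8 and 10 were less even in their libraries than days 1 and 3, with totals of 20.3 to 80.2 M counts, 7 libraries over 40 M and 3 male day 10 libraries (39102, 39103 and 39104) on another sequencing run. In the 5 animals within the shared run, the mean change from day 8 to day 10 was 0.58 ± 0.26 (SD, n = 5) for genes called higher on day 3 and -0.42 ± 0.08 for genes called lower. These animals are all of the females and the male 39100, so this subset also differs in sex from the full set. Scaling and single animals moved the count of 1789 genes. It was 78 without 39095, 358 without 39098, 437 without 39104, 704 without 39100, 758 without 39090 and 999 without 39102. With library totals in place of scaling factors 2503 genes rose and 477 fell, the median change of all genes moved to 0.31, and the mean of the genes called lower on day 3 became -0.18, with 6 of 8 animals down.

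**Figure D4:**
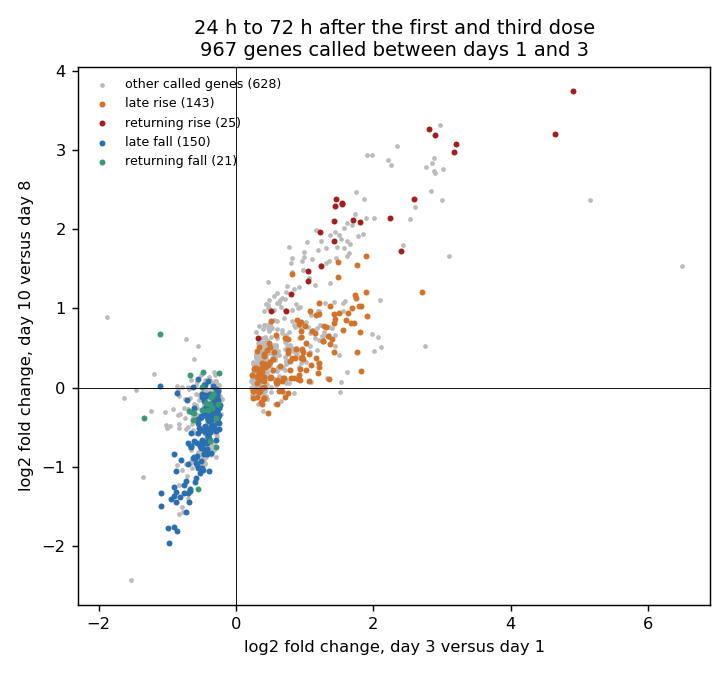
Log2 fold change of day 10 versus day 8 (vertical axis) against that of day 3 versus day 1 (horizontal axis) for the 967 genes called in the latter, coloured by group. Most points lie in the upper right and lower left, with 492 of 533 genes called higher above 0 and 392 of 434 called lower below 0 on the vertical axis.

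A direct test of the difference between the 2 intervals called 0 genes by edgeR (0% of those tested), with 1798 at an unadjusted p under 0.05, and 31 by DESeq2. The 4 named genes, chosen by their change in the first interval, are given beside this test. ENSMFAG00000040797 rose by 3.19 from day 8 to day 10 (SE 0.56, adjusted p = 0.0161 by edgeR) and ENSMFAG00000004079 by 2.73 (SE 0.53, adjusted p = 0.0177), with differences from the first interval of 0.31 (SE 0.78) and -0.07 (SE 0.75). ENSMFAG00000020302 fell, at a log2 fold change of -1.49 (SE 0.33, adjusted p = 0.0237). ENSMFAG00000031349 had a change of 0.67 (SE 0.43, adjusted p = 0.317), opposite in sign to its first interval, and the difference of 1.61 (SE 0.51) did not pass correction (adjusted p = 0.338). Its level on day 8 was 1.16 ± 1.82 log2 CPM (SD, n = 8), without the peak seen 24 h after the first dose.

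After the second dose the interval ran from day 4 to day 7, that is 72 h in place of 48 h, so the values are given side by side. Between these days 352 genes rose (2.19% of those tested) and 142 fell (0.885%), together 494 or 3.08%, and 19.2% had an unadjusted p under 0.05. Leaving out 1 animal gave 128 calls for 39100, 185 for 39090, 195 for 39095, 282 for 39104, 291 for 39097 and 1129 for 39103. Totals of these 16 libraries ran from 18.1 to 51.4 M counts, and 1 of them, day 7 of animal 39095, carries another library tag. Of the 533 genes called higher on day 3, 114 were called higher on day 7 and 14 lower, and of the 434 called lower, 17 were called lower and 0 higher. All 25 returning rise genes had a positive change and 22 were called higher, with a mean of 2.14 ± 0.65 (SD, n = 8) in 8 of 8 animals. In the late rise group 1 gene was called higher and 12 lower, and the mean was -0.21 ± 0.32 with 6 of 8 animals down. With library totals, which moved the median of all genes from 0.03 to 0.22, that mean was -0.02 with 4 animals in each direction.

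The difference between the day 4 to 7 and the day 1 to 3 change was called in 114 genes (0.71% of those tested), 93 with a more negative (0.579%) and 21 with a more positive change (0.131%) after the second dose. Genes called between days 1 and 3 made up 58 of these, 55 of them among the genes called higher, all with a more negative change, and 3 among the genes called lower. The late rise group held 41 of the 55 and the returning rise group 0. Since a gene with a large change from day 1 to day 3 is more likely both to be called and to exceed another interval, these counts describe the genes and are no independent test. The count of 114 was 0 without animal 39100, 35 without 39104, 56 without 39095 and 39 with library totals. Interval length, dose and order of dosing cannot be told apart in this difference.

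Animals differed widely in how far they moved from day 1 to day 3. To measure this without reusing the animal, genes were called in 7 animals and their mean change was taken in the animal left out. For genes called higher the change averaged 0.89 ± 0.57 (SD, n = 8), positive in 8 of 8 animals, where the 7 animals that chose the genes gave 0.97 ± 0.11. For genes called lower it averaged -0.35 ± 0.25, negative in 7 of 8 animals, where the choosing animals gave -0.55 ± 0.03. Animal 39090 hardly moved, at 0.05 and 0.07 for the 2 sets, and 54.9% and 39.3% of the genes went in the called direction, beside 46.5% and 52.4% of all genes in that animal. Animal 39097 was next, at 0.35 and -0.09. The largest increase was in animal 39100, at 1.80, with 99.4% of 181 genes up, and the largest decrease in animal 39095, at -0.71. The gene set differed with the animal left out, from 154 to 856 genes called higher, so these values are not over the same genes. Over the fixed 533 genes called higher, which all 8 animals helped choose, the change ran from 0.26 in 39090 to 1.39 in 39100.

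Over the 533 genes called higher, the mean change of animal 39090 was 0.26 from day 1 to day 3 and 0.81 from day 8 to day 10. Over the returning rise group it was 0.35 and 2.67. Animal 39103 had 2.51 over the returning rise group from day 1 to day 3 and 0.20 from day 8 to day 10. Its day 10 library is on another sequencing run than its day 8 library, and the part of the run in this value was not tested. Animals 39102 and 39104, with the same change of run, had 2.35 and 3.00 from day 8 to day 10. Measured as the root mean square log2 difference from day 0 of the same animal over all genes tested, libraries lay at 0.71 ± 0.06 (SD, n = 8) on day 1 and 0.75 ± 0.08 on day 3, further on day 3 in 7 of 8 animals (adjusted p = 0.609 by the exact permutation test).

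**Figure D5:**
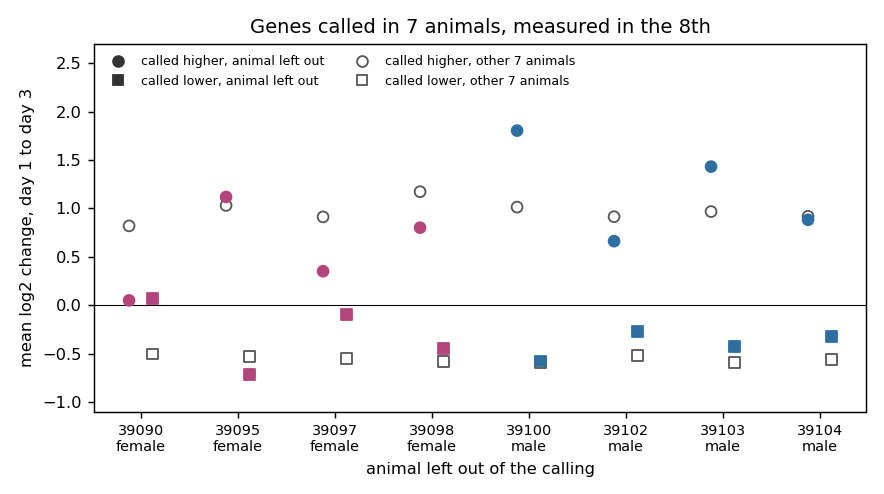
Mean log2 change from day 1 to day 3 (vertical axis) of genes called higher (circles) and lower (squares) when each animal named on the horizontal axis was left out of the calling, in that animal (filled, by sex) and in the other 7 animals (open). Animal 39090 lies near 0 for both sets (0.05 and 0.07), while animal 39100 reaches 1.80 for genes called higher. The gene sets differ from animal to animal.

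The 2 animals with the smallest change were female, and the sexes were compared directly. A term for a different change in males called 0 genes by edgeR (0% of those tested), with 945 genes or 5.89% at an unadjusted p under 0.05, and 33 genes by DESeq2. Among the 533 genes called higher, 113 were at an unadjusted p under 0.05 (21.2%), and the change was more positive in males in 108 of them. Among the 434 called lower there were 31 such genes (7.14%), 18 with a more negative and 13 with a more positive change in males. None of these passes correction over all genes, and the genes were chosen in part on the same males. Without animal 39095, the female with the largest change, 45 genes were called, 35 more positive and 10 more negative in males.

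For ENSMFAG00000004079 the change was 1.52 ± 1.28 (SD, n = 4) in females and 4.34 ± 1.36 in males (adjusted p = 0.472 for the difference by edgeR). On day 1 its mean level was 7.46 log2 CPM in females and 4.73 in males, while on day 3 the levels were 8.98 and 9.08. ENSMFAG00000040797 had changes of 1.63 ± 1.88 and 4.49 ± 1.21 in females and males (adjusted p = 0.604 by edgeR). ENSMFAG00000031349 gave -0.98 ± 0.30 in females and -1.23 ± 0.30 in males (adjusted p = 0.943 by edgeR). For ENSMFAG00000020302 the values were -0.68 ± 0.50 in females and -1.50 ± 0.23 in males (adjusted p = 0.714 by edgeR).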

How the data were processed

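Per the labels' protocols, the RNAdvance Blood Kit was used to isolate RNA from whole blood, and KAPA HyperPrep reagents to prepare mRNA libraries. The authors deposited raw counts, whole numbers of reads per gene, in 2 tables of the same 80 libraries with 38550 and 35432 genes. The first, with cynomolgus identifiers (ENSMFAG), was used here. The second, with rhesus macaque identifiers (ENSMMUG), served as an alternative for the number of genes called. Its genes were not matched to those of the first. The sources used here do not give the aligner, counting program, strand setting or genome build, so genes that share reads are uncertain. Of the identifiers, 0 matched the RefSeq gene table used for names, so lists of marker and pathway genes could not be used.

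Low-count genes were removed by filterByExpr of edgeR 4.0.16, with day as the grouping and the 80 libraries together, leaving 16054 genes (41.6%), and TMM factors were computed. Each contrast was fitted on the libraries of its own days by glmQLFit and glmQLFTest in R 4.3.3, animal being the block, and p-values were adjusted over all genes tested. Log2 CPM had a prior count of 2. Library measures were tested by 256 exact sign flips, whose smallest p is 0.0078. Alternatives used DESeq2 1.42.0 and limma 3.58.1. The fits were tested on simulated counts without differences in level between animals, so that test does not bear on the animal block.

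Libraries were paired by the animal numbers in the labels. Between the day 1 and day 3 libraries of 1 animal, deviations from the mean of each day correlated at a median r of 0.47 (lowest 0.39), against -0.07 between different animals. Libraries of 1 day always differed by more than counting noise (smallest chi-square per degree of freedom 39.0). Named genes are the 2 with the largest and the 2 with the smallest log2 fold change on day 3 versus day 1 that passed the threshold, moved 1 way in 8 of 8 animals and averaged 2 log2 CPM or more, a rule that 246 rising and 227 falling genes met. The comparison, its tests and its lists were chosen with earlier results of these data known. The 4 groups by position of day 0 and the measure in the animal left out were defined after the data were seen.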

Additional observations from a re-analysis of the deposited data

Results flagged for a closer look

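Of 34 sets of 8 values tested for an outlying animal, 2 held one by Dixon's test, where chance gives about 1 in 20. The day 1 level of ENSMFAG00000031349 in animal 39090 was 5.04 log2 CPM, apart from the other 7 animals. The day 3 library of animal 39097 held 36.2 M counts, more than the other 7 of that day. A test of the difference itself separated the change from day 4 to day 7 from that between days 1 and 3 in 114 genes by edgeR.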

How the results depend on the processing

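For day 3 versus day 1, the count of 967 became 1876 with DESeq2, 1809 without the low-count filter (837 up and 972 down), 551 in 1 fit over all 80 libraries (421 up and 130 down), 351 with limma voom and sample weights, 96 at an adjusted p under 0.01, 25 without the replicate block (unpaired) and 0 in females alone. It was 826 with library totals, 959 with upper-quartile factors and 1009 of 15218 genes in the second table, which holds the same libraries under rhesus identifiers. Leaving out 1 animal gave 241 to 1805 calls, and 239 of the 241 were among the 967. For day 10 versus day 8, 1789 became 2980 with library totals, 3514 with DESeq2, 274 without the block and 78 to 2604 without 1 animal. For day 7 versus day 4, 494 became 308, 1526, 204 and 128 to 1129 in the same order. The difference between the changes after dose 1 and dose 3, 0 genes, became 31 with DESeq2 and stayed at 0 without any 1 animal. For dose 2, 114 genes became 39, 384, 15 and 0 to 128. The sex difference, 0 genes, became 33 with DESeq2 and 0 to 45 without 1 animal. Day 0 against the midpoint, 1735 genes, became 83 without the block and 1022 to 1853 without 1 animal. The share of called genes with day 0 nearer day 1 was 77.6% with library totals, 73.3% with DESeq2 and 70.4% to 79.7% without 1 animal. The mean change from day 8 to day 10 of genes called lower became -0.18 with library totals. Apart from fewer animals or genes in a fit, the cause of these shifts was not tested. Within the first table, the named genes kept their direction in the alternatives run, the block removed or not. Without the block the log2 values were 2.37 for ENSMFAG00000040797 and 2.18 for ENSMFAG00000004079. In females alone, none of the 4 passed (adjusted p from 0.211 to 0.457). Alternatives added after seeing the data concerned the share nearer day 1, the 4 group sizes, their means with library totals and the subset within 1 sequencing run.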
